A study of Arabidopsis thaliana with 19 samples.

Results

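The H3K27me1 and H3K27me3 immunoprecipitations (IPs) of Arabidopsis thaliana sperm were compared by the protein-coding genes that lay under their peaks on chromosomes 1 to 5. A gene counted as carrying a mark if peaks of that mark covered 150 bp or more of its span. By the broad peak lists, 3392 of 27444 protein-coding genes carried at least 1 of both marks. Of these, 2287 carried H3K27me1 only, 980 carried H3K27me3 only and 125 carried both, and 24052 genes carried neither. The same sets were also formed from the narrow peak lists, because the broad and the narrow list of H3K27me1 covered different parts of the genome.

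Each mark had 2 IPs, within a series of 19 samples. All groups were labelled wild type Col-0 and carried the ProHTR10:HTR10-Clover reporter, a fluorescent histone H3 variant driven by a promoter that is active in the male germline, which served to sort sperm nuclei by flow cytometry. Sorted chromatin was digested with micrococcal nuclease to single nucleosomes before the IP. The series held 2 input sets, Input_A and Input_B, each with preparations numbered 1 to 3. The H3K27me1 IPs came from input preparations 1 and 3, with the Millipore antibody 17-643. The H3K27me3 IPs came from input preparations 2 and 3, with the Millipore antibody 07-449. The input set of each mark is not stated here, so preparation 3 is not shown to be shared by the marks. A difference between input sets was not tested. The deposited list of each mark pools its IPs, so no value per IP, no replicate error and no test between the marks could be given, and the depth behind a peak is unknown. Intervals below are 95% exact binomial (Clopper-Pearson) intervals over genes. They cover the counting of genes only, and genes that share a peak are not independent.

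Lysine 27 of histone H3 can carry 1 or 3 methyl groups, and the enzymes differ. In plants, H3K27me1 is laid down during DNA replication by ATXR5 and ATXR6 and is known from silent heterochromatin, where it helps to restrain transposons and extra rounds of replication. H3K27me3 is laid down by Polycomb repressive complex 2 (PRC2), whose catalytic subunits are CLF, SWN and MEA, and in leaves and seedlings it covers developmental regulators such as floral MADS-box and homeobox genes. H3K4me3 and H3K27ac mark the starts of active genes.

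All 12 listed male germline genes carried both H3K4me3 and H3K27ac, the active marks of the same nuclei. Of 11 genes of the pollen vegetative cell, the other cell type of the pollen grain, 10 carried H3K4me3 and 6 carried H3K27ac. Of 5 egg cell genes, 4 carried H3K4me3 and 1 carried H3K27ac, and of 11 leaf photosynthesis genes 8 carried H3K4me3 and 5 carried H3K27ac. H3K4me3 lay on 75.2% and H3K27ac on 55.9% of all protein-coding genes by the narrow lists, so H3K4me3 on a gene of another cell type was common. What part nuclei of other cell types had in this was not tested.

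The H3K27me1 list held 2433 broad peaks over 6.03 Mb with a median width of 1353 bp, and 13130 narrow peaks over 24.5 Mb with a median width of 1008 bp. The H3K27me3 list was smaller, with 1423 broad peaks over 1.44 Mb, median width 731 bp, and 478 narrow peaks over 0.360 Mb, median width 591.5 bp. For H3K27me3 the lists were nested, since all 478 narrow peaks lay within broad peaks. For H3K27me1 they were not, as only 14.5% of the bases under narrow peaks were also under a broad peak and 59.2% of the bases under broad peaks were also under a narrow one. Of the broad H3K27me3 peaks, 1047 (73.6%) had a q value above 0.05 in the authors' list. The fold of a broad peak did not follow the highest fold of the narrow peaks in it (Spearman's rho across peaks -0.15 over 1795 H3K27me1 peaks and -0.05 over 457 H3K27me3 peaks), so it is unsure that the folds and q values of the broad lists stand beside the right peaks. Folds given below are therefore those of the authors' narrow lists, as a ratio of IP to control at the peak, and broad lists are used for position only.

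H3K27me1 without H3K27me3 was the commonest state of a marked gene under every choice of list. By the broad lists, 8.33% of all protein-coding genes carried H3K27me1 only, 3.57% carried H3K27me3 only and 0.455% carried both. The narrow lists gave shares of 26.5% (7260 genes) for H3K27me1 only, 1.07% (295) for H3K27me3 only and 0.401% (110) for both. With the narrow list of H3K27me1 and the broad list of H3K27me3, which are the longer lists of each mark, they were 25.5% (7006), 2.7% (741) and 1.33% (364). Of the 2287 broad H3K27me1-only genes, 1617 (70.7%) were H3K27me1-only by the narrow lists too, and they made up 22.3% of that narrow set. Of the 980 broad H3K27me3-only genes, 271 (27.7%) kept that state in the narrow lists, which was 91.9% of the narrow set. A further 204 of them were H3K27me1-only, 82 carried both and 423 carried neither by the narrow lists.

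**Figure D1:**
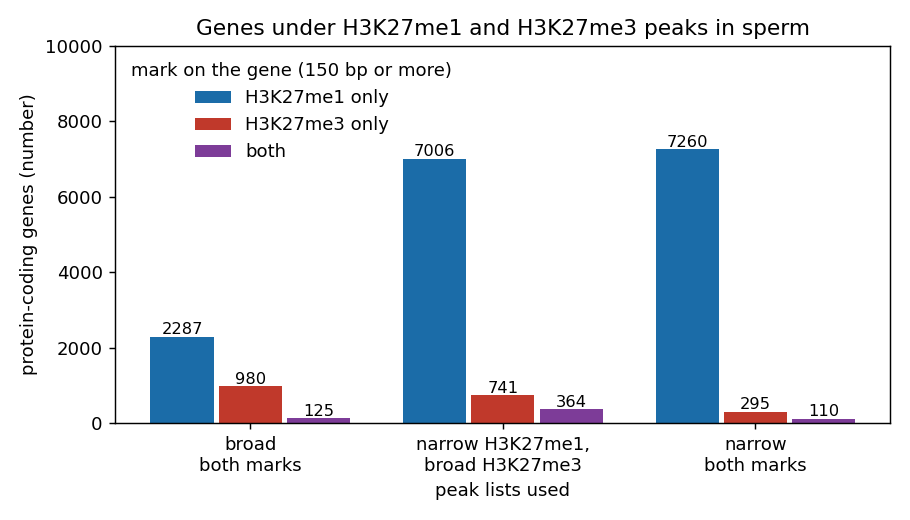
Number of protein-coding genes (y axis) with H3K27me1 only, H3K27me3 only or both, for 3 combinations of peak lists (x axis); a gene counts when at least 150 bp of its span lies under peaks. The H3K27me1-only set is the tallest bar in each combination, at 2287, 7006 and 7260 genes from left to right.

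Carrying one mark went with the other slightly more often than in all genes by the broad lists. Of 2412 genes with broad H3K27me1, 125 (5.18%, interval 4.33 to 6.14) also had broad H3K27me3, beside 4.03% of all protein-coding genes. Of 1105 genes with broad H3K27me3, the same 125 were 11.3% (interval 9.5 to 13.3), beside 8.79% of all genes with broad H3K27me1. In the narrow lists the shares were 1.49% of H3K27me1 genes, beside 1.48% of all genes, and 27.2% of H3K27me3 genes, beside 26.9% of all genes. With the longer list of each mark, 32.9% of the H3K27me3 genes carried narrow H3K27me1 (interval 30.2 to 35.8), beside 26.9% of all genes. In bases, 132.5 kb lay under broad peaks of both marks. This was 2.2% of the H3K27me1 bases, beside 1.21% of the genome under broad H3K27me3. It was 9.22% of the H3K27me3 bases, beside 5.06% of the genome under broad H3K27me1.

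The marks covered their genes in different ways. H3K27me1 lay over more of a gene, and by the broad lists it ran on past gene ends. H3K27me3 lay in shorter stretches within a gene. In H3K27me1-only genes a median of 1004 bp (quartiles 602.5 to 1613) was under H3K27me1, which was 61.4% of the span (quartiles 36.3 to 87.8). In H3K27me3-only genes a median of 642 bp (quartiles 463.75 to 935.25) was under H3K27me3, which was 38.2% of the span (quartiles 23.0 to 59.7). The whole span was covered in 362 H3K27me1-only genes (15.8%) and in 24 H3K27me3-only genes (2.45%). Peaks stayed clear of both gene ends in 44.2% of H3K27me1-only genes and 64.8% of H3K27me3-only genes. In the narrow lists the order was the same, at 51.7% of the span for H3K27me1-only and 36.6% for H3K27me3-only genes. Narrow peaks stayed clear of both gene ends in 66.3% and 86.1% of these genes.

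Outside the gene the same difference showed by the broad lists. In the 500 bp beyond each gene end, 32.4% of bases lay under broad H3K27me1 peaks for H3K27me1-only genes and 13.7% lay under broad H3K27me3 peaks for H3K27me3-only genes. At 1450 bp beyond the end the shares were 24.2% and 3.99%, beside 4.88% and 0.955% around all protein-coding genes. By the narrow lists, 17.9% of bases in the 500 bp outside H3K27me1-only genes lay under H3K27me1, beside 20.6% of the genome. Outside H3K27me3-only genes 1.74% lay under narrow H3K27me3, beside 0.302% of the genome. By the broad lists H3K27me3 cover was highest some 550 bp inside the gene end, at 45.9% of bases (792 genes), and stood at 37.7% at 950 bp (464 genes). H3K27me1 cover was 59.6% at 550 bp (1802 genes) and 61.5% at 950 bp (1148 genes). Only genes long enough to reach a distance are counted there, so these values mix position with gene length. The gene table gives no strand, so gene starts and gene ends are not told apart.

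**Figure D2:**
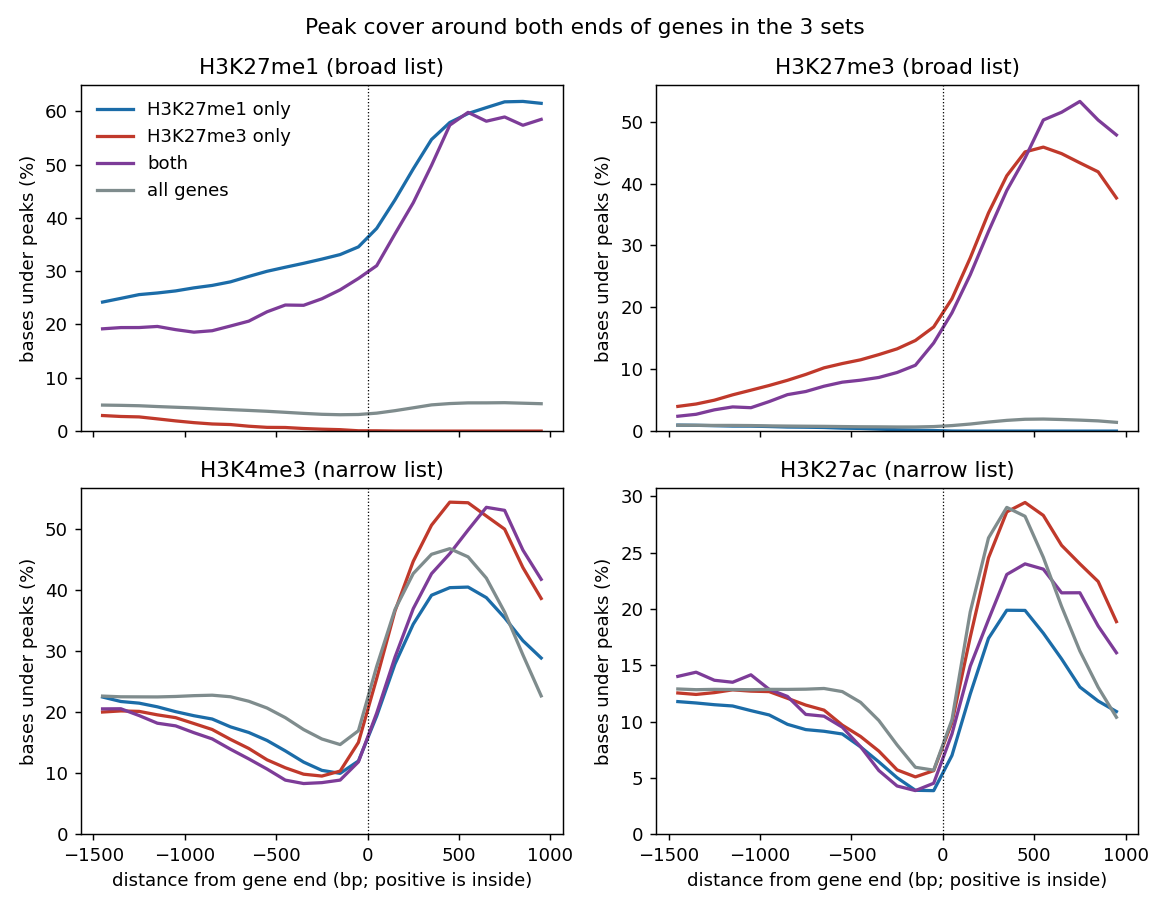
Percent of bases under peaks (y axis) against the distance in bp from a gene end (x axis; positive is inside the gene, starts and ends pooled), for genes with H3K27me1 only, H3K27me3 only, both, and all protein-coding genes; broad lists for H3K27me1 and H3K27me3, narrow lists for H3K4me3 and H3K27ac. H3K27me1 of H3K27me1-only genes stays at 24.2% of bases 1450 bp outside the gene, whereas H3K27me3 of H3K27me3-only genes stands at 3.99% there. Inside the gene, each distance holds only genes long enough to reach it, so the genes differ between distances.

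The genes with most bases under each mark were picked for their cover, so they are not typical of their sets. PAP5, a purple acid phosphatase gene, had its whole span of 7324 bp under 1 broad H3K27me1 peak of 15476 bp (chr1:19713184-19728659, TAIR10), and the narrow peaks on it reached a fold of 3.26. DMT2, a gene of the MET1 class of DNA methyltransferases, was covered over all its 6134 bp (chr4:8144488-8153081), with a narrow fold of 2.88. GUN5, which encodes the H subunit of magnesium chelatase in chlorophyll synthesis, had 4825 of 5123 bp under H3K27me1, and carried H3K4me3 over 1177 bp as well. LAZ5, an immune receptor gene of the NLR class, lay with its 4546 bp inside a peak of 6784 bp (chr5:18112767-18119550). AT1G35895, PHT1;8, AT3G60961 and AT2G14080 complete the 8 genes with most H3K27me1, at 4505 to 7348 bp.

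On the H3K27me3 side, 7 of the 8 leading genes had 2878 to 4327 bp covered, and AT2G08986 had more. NAC074, a NAC transcription factor gene, had 3530 of 4414 bp under 1 broad peak (chr4:14090824-14094353), with a narrow fold of 7.25. VND1, a NAC regulator of xylem vessel formation, had 3219 of 3640 bp covered (chr2:7848388-7852867), with a narrow fold of 5.07. TGG2, a myrosinase that breaks down glucosinolates, was covered over its whole span of 3070 bp, with a narrow fold of 5.76. JMJ13, itself a demethylase gene of H3K27me3, had 4327 of 5041 bp under H3K27me3 (chr5:19045977-19050665) with a narrow fold of 4.50, and carried H3K4me3 over 1518 bp and H3K27ac over 710 bp. AT2G08986, a gene in the pericentromere of chromosome 2, had all 8403 bp under the widest broad H3K27me3 peak (12415 bp). By the narrow lists it carried both marks, with 8340 bp under H3K27me1 at a fold of 3.32 and a fold of 11.3 for H3K27me3. AT1G40104, also pericentromeric, likewise had 3794 bp under narrow H3K27me1 beside 3092 bp under narrow H3K27me3. Both genes are H3K27me3-only because the broad H3K27me1 list leaves them out.

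Of the 2287 H3K27me1-only genes, 1204 (52.6%) had another gene of their set as the next protein-coding gene on the chromosome. Among the 980 H3K27me3-only genes, 228 (23.3%) were next to another of their own set. The sets held 8.33% and 3.57% of all protein-coding genes, so a neighbour of the same set is likelier in the larger one. Whether the shares differ beyond set size was not tested. The H3K27me1-only genes formed 55 runs of 4 or more, the longest of 8 genes, and 84 of the 1813 peaks behind them covered 3 or more genes. One run of 8 held BGLU5, BGLU6, NAC023 and NAC024, and others held 4 glutathione transferase genes (GSTF7, GSTF6, GSTF5 and GSTF4, under 1 peak at chr1:658880-666246) or the cytokinin glucosyltransferase genes UGT76C1 and UGT76C2. The H3K27me3-only genes formed 4 runs, each of 4 genes. One of these was the 2S albumin cluster SESA1, SESA2, SESA3 and SESA4, which lay under a single peak of 6088 bp (chr4:13607818-13613905), and another was SK8, SK7, SK9 and SK10. By the broad lists 129 H3K27me3-only genes (13.2%) were next to an H3K27me1-only gene, and the median distance to the nearest one was 24.6 kb. With the longer H3K27me1-only sets this was 42.7% at a median of 7.77 kb for the narrow lists, and 39.0% at 7.74 kb for narrow H3K27me1 with broad H3K27me3. By these 3 choices of list, 8.33%, 26.5% and 25.5% of all protein-coding genes were H3K27me1-only. The share next to such a gene rises with the size of that set, and closeness beyond this was not tested.

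The position of the H3K27me1-only genes depended on the list. Pericentromeres were taken as the gene-poor run of 500 kb windows of each chromosome and hold 15.5% of the genome and 1066 genes (3.88% of protein-coding genes). By the broad lists, 4.37% of H3K27me1-only genes lay there (interval 3.57 to 5.29), 3.88% of H3K27me3-only genes (2.76 to 5.28) and 3.20% of genes with both (0.879 to 7.99), so that no set stood apart from all genes beyond its interval. In the narrow lists 8.06% of H3K27me1-only genes were pericentromeric (7.44 to 8.71), beside 2.37% of H3K27me3-only genes (0.959 to 4.83). Read the other way, 54.9% of pericentromeric genes and 25.3% of arm genes were H3K27me1-only by the narrow lists, against 9.38% and 8.29% by the broad lists. In bases, pericentromeres held 47.4% of the narrow and 21.2% of the broad H3K27me1 list, and 19.9% of the narrow and 14.7% of the broad H3K27me3 list.

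On the arms, the 2 Mb next to the pericentromere held more of both sets than of all genes by the broad lists. Within 2 Mb of it lay 20.2% of the arm genes with broad H3K27me1 only, 20.6% of those with H3K27me3 only and 19% of those with both, beside 15.6% of all arm genes. In that belt 10.7% of genes were H3K27me1-only (9.81 to 11.7) and 4.73% were H3K27me3-only (4.10 to 5.42). The shares did not fall steadily with distance. They were lowest at 10 to 12 Mb, at 6.38% (5.57 to 7.26) and 2.44% (1.94 to 3.02), and beyond 12 Mb they were 9.45% (8.14 to 10.9) and 3.37% (2.59 to 4.31), with intervals that overlap those of the belt. The belt had 35.0% H3K27me1-only genes (33.6 to 36.5) by the narrow lists, beside 26.5% of all genes. Its H3K27me3-only share was 1.29% (0.969 to 1.69) by the narrow lists, beside 1.07% of all genes, and 3.07% (2.56 to 3.64) with narrow H3K27me1 and broad H3K27me3, beside 2.7%, so that this share did not stand apart from all genes beyond its interval under either choice. Between chromosomes, broad H3K27me1-only genes ranged from 6.25% of the genes of chromosome 3 to 9.77% of those of chromosome 1, and H3K27me3-only genes from 3.28% on chromosome 1 to 4.15% on chromosome 2. The narrow H3K27me1-only share ran from 24.6% on chromosome 5 to 28.7% on chromosome 2.

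**Figure D3:**
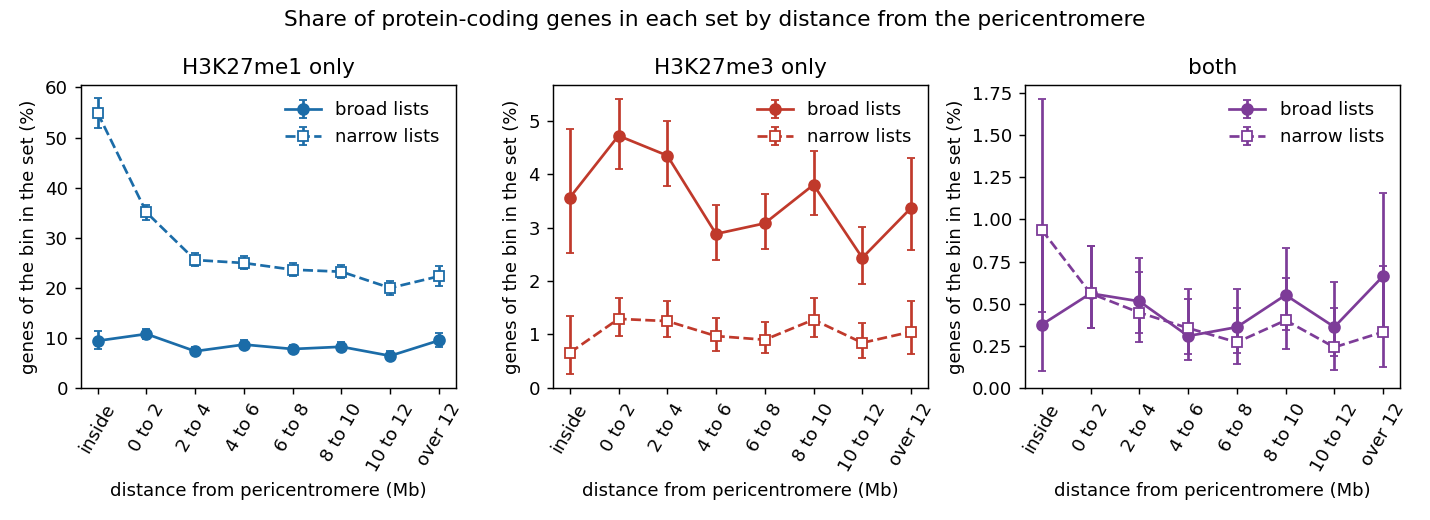
Percent of the protein-coding genes of each distance bin that belong to a set (y axis, with 95% exact binomial intervals), against the distance in Mb from the edge of the pericentromere (x axis; inside is the pericentromere itself), in 1 panel per set, from broad lists (filled circles) and narrow lists (open squares). The narrow H3K27me1-only share is 54.9% inside pericentromeres and 35.0% within 2 Mb of them, and the broad one is 9.38% and 10.7%.

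By the broad lists the sets were close to one another in length, and the H3K27me3-only median lay below that of all genes beyond its interval. The median span was 2006 bp for H3K27me1-only genes (quartiles 1317.5 to 2888; interval of the median 1941 to 2079), 1937.5 bp for H3K27me3-only genes (1357.25 to 2798.25; interval 1867 to 2028) and 1993 bp for genes with both (interval 1822 to 2165), beside 2078 bp for all genes (interval 2062 to 2093). Genes over 5 kb made up 3.50%, 3.98% and 4.80% of the H3K27me1-only, H3K27me3-only and both sets, beside 5.97% of all genes. For genes with both this share was 7.27% by the narrow lists and 6.59% with narrow H3K27me1 and broad H3K27me3, above that of all genes. For H3K27me3-only genes it was 1.36% by the narrow lists. The narrow lists gave medians of 1967 bp (1936 to 2004) for H3K27me1-only and 1830 bp (1710 to 1928) for H3K27me3-only genes. Both intervals lay below that of all genes. Genes with both had a narrow-list median of 2095 bp (1915 to 2442). Genes under 1 kb made up 15.1%, 11.9% and 6.40% of the 3 sets by the broad lists, beside 15.9% of all genes. Short genes have less room for 150 bp of peak, so their share follows in part from the rule. In pericentromeres broad H3K27me1-only genes had a median of 1472 bp, close to the 1488.5 bp of all pericentromeric genes. The 38 broad H3K27me3-only genes there had a median of 2191 bp. This median depended on the list, at 1592 bp for 7 genes by the narrow lists. With narrow H3K27me1 and broad H3K27me3 it was 1837 bp for 17 genes.

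Transcription factor genes were a larger share of H3K27me3-only than of H3K27me1-only genes. Genes of 11 transcription factor families made up 4.33% of H3K27me1-only genes (99 genes, interval 3.53 to 5.25), 9.39% of H3K27me3-only genes (92 genes, 7.63 to 11.4) and 8.80% of genes with both (11 genes, 4.48 to 15.2), beside 2.59% of all genes. Families were matched by gene names, and named genes were 38.8%, 49.2% and 56.0% of the sets, beside 37.8% of all genes. Among named genes alone, transcription factor families made up 10.5% of H3K27me1-only genes, 18.5% of H3K27me3-only genes and 15.7% of genes with both, beside 6.63% of all named genes. From the narrow lists the shares of all genes were 3.83% for H3K27me1 only, 9.15% for H3K27me3 only and 14.5% for both.

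Homeobox genes, regulators of meristems, organ shape and epidermis, were by the broad lists the transcription factor family with most H3K27me3-only members by number. Of 99 members, 14 were H3K27me1-only (14.1%), 19 H3K27me3-only (19.2%) and 3 carried both (3.03%), beside 8.33%, 3.57% and 0.455% of all genes. H3K27me1-only members included GL2, which controls trichome and root hair fate, with 3739 of 4485 bp covered, FWA with 3327 bp, PHV, a leaf polarity gene, with 1733 bp and WUS with 1696 bp. H3K27me3-only members included HB20 with 1947 bp, WOX1, a gene of leaf blade outgrowth, with 1625 bp, ANL2, an anthocyanin and root regulator, with 1618 bp and BLH1 with 1607 bp. With the narrow H3K27me1 list and the broad H3K27me3 list, 37 homeobox genes were H3K27me1-only, 7 were H3K27me3-only and 15 carried both. By the narrow lists 2 homeobox genes were H3K27me3-only, fewer than the 7 NAC, 5 MYB and 4 MADS-box genes. MYB genes (131) had 18 H3K27me1-only and 18 H3K27me3-only members by the broad lists, 13.7% each, beside 8.33% and 3.57% of all genes. These numbers were 55 and 5 by the narrow lists, and 49 and 10 with narrow H3K27me1 and broad H3K27me3. Among NAC genes (101), 12 were H3K27me1-only, 10 H3K27me3-only and 2 carried both by the broad lists. The xylem regulators of this family fell in different sets, since VND7 had 1401 bp under H3K27me1, VND1 3219 bp under H3K27me3, and NST1 carried both.

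MADS-box genes carried each mark more often than all genes by the broad lists. Of 103 members, 20 were H3K27me1-only (19.4%, interval 12.3 to 28.4) and 13 were H3K27me3-only (12.6%, 6.89 to 20.6), beside 8.33% and 3.57% of all genes, and none carried both. The H3K27me1-only members lay under 20 separate peaks and the H3K27me3-only members under 13. From the narrow lists 44 were H3K27me1-only (42.7%, 33.0 to 52.8), 4 were H3K27me3-only (3.88%, 1.07 to 9.65, an interval that reaches the 1.07% of all genes) and 1 carried both. With narrow H3K27me1 and broad H3K27me3, 41 were H3K27me1-only, 9 were H3K27me3-only and 4 carried both.

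In 5 further families H3K27me1-only members were above the 8.33% of all genes beyond their intervals by the broad lists, and few members or none were H3K27me3-only, beside 3.57% of all genes. Of their H3K27me3-only shares, that of receptor-like kinases and proteins alone had an interval below the share of all genes. Glutathione transferases, detoxification enzymes, had 15 H3K27me1-only members of 49 (30.6%, interval 18.3 to 45.4) and no member with H3K27me3 (0 of 49, interval up to 7.25%). These 15 genes lay under 10 peaks, some of them next to one another. GSTU16 was covered over its whole 1724 bp and GSTL1 over 1719 bp, followed by GSTF6 with 1388 bp and GSTF5 with 1328 bp. Expansins and xyloglucan endotransglucosylases, which loosen the cell wall, had 16 H3K27me1-only members of 70 (22.9%), under 12 peaks, and 2 H3K27me3-only members (2.86%). Receptor-like kinases and proteins had 27 H3K27me1-only members of 190 (14.2%, interval 9.58 to 20.0), 1 H3K27me3-only member (0.526%, interval 0.0133 to 2.90) and 2 with both, CRK4 and LECRKA4.1. CRK40, a cysteine-rich receptor-like kinase, lay with all its 4350 bp under a H3K27me1 peak of 39604 bp (chr4:2279800-2319403) that covered 4 genes. SAUR genes, induced by auxin, had 14 H3K27me1-only members of 80 (interval 9.91 to 27.6), under 10 peaks, and 1 H3K27me3-only member. Light-harvesting and photosystem genes had 9 H3K27me1-only members of 50 and no H3K27me3-only member. Members that share a peak are not independent, so the intervals of such families are likely too narrow. In the narrow lists the H3K27me1-only shares of 3 of the 5 families held the 26.5% of all genes in their intervals, at 32.7% of glutathione transferases (19.9 to 47.5), 31.3% of SAUR genes (21.3 to 42.6) and 30.0% of light-harvesting and photosystem genes (17.9 to 44.6). Expansins and xyloglucan endotransglucosylases were above it, at 41.4% (29.8 to 53.8). Pectin enzymes had 7 H3K27me1-only and 5 H3K27me3-only members of 33 by the broad lists, both above all genes beyond their intervals (8.98 to 38.9% and 5.11 to 31.9%), and 14 and 1 by the narrow lists, with intervals that held the shares of all genes. Aux/IAA and GH3 genes had 7 and 4 of 41 and YUCCA and PIN genes 2 and 3 of 19 by the broad lists, with intervals that held the shares of all genes.

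Cytochrome P450 genes, the largest family counted, were above all genes in H3K27me3 by the broad lists. Of 240 members, 27 were H3K27me1-only (11.3%, interval 7.55 to 15.9), 30 H3K27me3-only (12.5%, interval 8.59 to 17.4) and 6 carried both, beside 8.33%, 3.57% and 0.455% of all genes. BR6OX2, of brassinosteroid synthesis, and CYP79F1, of glucosinolate synthesis, had 3158 and 2804 bp under H3K27me1, and CYP86A8, of cutin synthesis, had 2089 bp under H3K27me3. By the narrow lists 135 P450 genes (56.3%) were H3K27me1-only and 10 were H3K27me3-only, beside 26.5% and 1.07% of all genes. UDP-glycosyltransferases had 7 H3K27me1-only and 5 H3K27me3-only members of 64 by the broad lists, against 38 and none by the narrow lists. The narrow lists also gave a high H3K27me1-only share for receptor-like kinases and proteins, with 112 of 190 and none H3K27me3-only. Ribosomal protein genes had 3 H3K27me1-only members of 75 and none with H3K27me3, and of 24 histone genes none was H3K27me1-only and 2 were H3K27me3-only, HTA6 and GAMMA-H2AX.

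**Figure D4:**
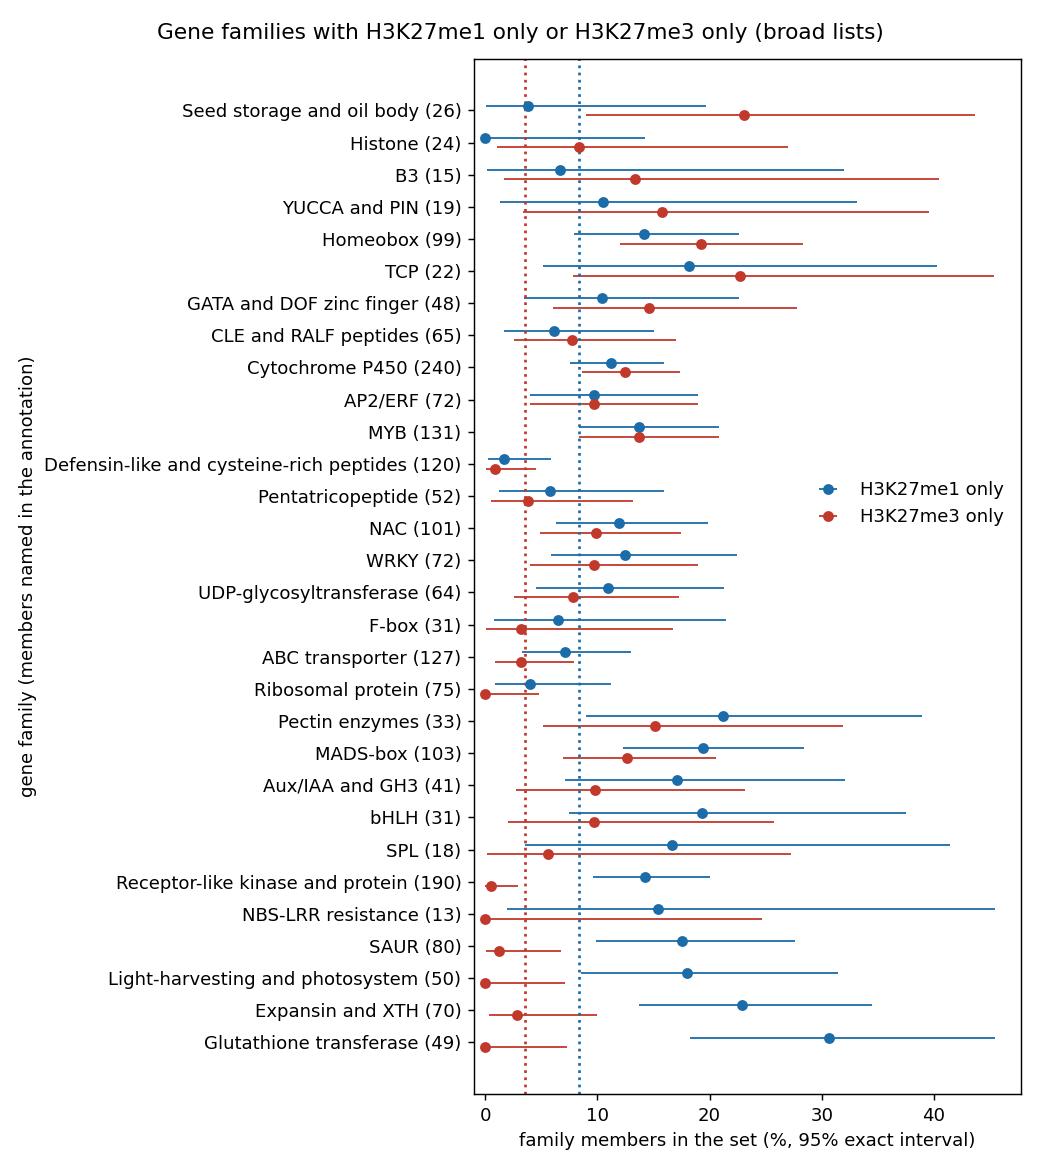
Percent of the members of each family (rows, with the number of members) that carry H3K27me1 only or H3K27me3 only by the broad lists, with 95% exact binomial intervals; dotted lines are the shares of all protein-coding genes, 8.33% and 3.57%. Glutathione transferases (30.6% and 0%) stand at the H3K27me1 end at the bottom, and seed storage and oil body genes (3.85% and 23.1%) at the H3K27me3 end at the top. The 15 H3K27me1-only glutathione transferase genes lay under 10 peaks, and the 6 H3K27me3-only seed storage and oil body genes under 3.

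The floral regulators were divided between the marks. Of 25 genes, 6 were H3K27me1-only, 7 were H3K27me3-only, none carried both and 12 carried neither. The shares of 24% and 28% stand beside 8.33% and 3.57% of all genes, which are also the background of the broad counts in the lists that follow; by the narrow lists it is 26.5% and 1.07%. The 6 with H3K27me1 were all MADS-box genes. SHP2, which patterns the fruit valve margin, was covered over its whole 3900 bp (chr2:17820111-17827904), and its paralogue SHP1 over 1089 of 4358 bp. AG, the gene of stamen and carpel identity, had 1773 of 5684 bp covered (chr4:10383277-10385049), AP3, of petal and stamen identity, 1620 of 2175 bp, SEP4 2496 of 2610 bp and CAL 2431 of 3651 bp. Narrow H3K27me1 peaks were also on 5 of these 6 genes, the exception being AP3, and additionally on SEP2, STK, SOC1 and SUP.

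The 7 with H3K27me3 held the MADS-box genes FUL, SVP, AP1 and AGL24 beside LFY, SUP and SPL. FUL, which acts in fruit valve growth and flowering, had 1587 of 3836 bp under H3K27me3 (chr5:24503853-24505439), and SVP, a repressor of flowering, 2029 of 4255 bp. Shorter stretches lay on AP1 (512 bp), AGL24 (583 bp), LFY (454 bp), SUP (482 bp) and SPL, the gene of spore formation also called SPOROCYTELESS (453 bp). Of the 7, FUL alone was also under narrow H3K27me3 peaks (898 bp), and SUP had 838 bp under narrow H3K27me1. LFY and SPL carried both H3K4me3 and H3K27ac, at 1477 and 1044 bp on LFY and 701 and 408 bp on SPL.

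Meristem and root patterning genes carried more H3K27me3 than H3K27me1 by the broad lists. Of 19 genes, WUS, which maintains shoot stem cells, was H3K27me1-only with 1696 of 1941 bp covered (chr2:7807589-7810566). KNAT1, a meristem homeobox gene, had 1462 bp under H3K27me3, WOX9 1415 bp, SHR, of root ground tissue, 1285 bp, ANT, of organ growth, 936 bp and CUC2, of organ boundaries, 551 bp. PLT1 and PLT2, which maintain the root stem cell niche, carried both. Narrow H3K27me1 peaks lay also on KNAT1 (339 bp), WOX9 (495 bp) and ANT (508 bp), and the narrow lists gave 6 H3K27me1-only genes, 1 H3K27me3-only gene and 3 with both.

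Seed and embryo genes were the list with most H3K27me3 by the broad lists, at 3 H3K27me1-only, 8 H3K27me3-only and 2 with both of 18. Of the 8, the 4 genes of the SESA cluster lay under a single peak. The 8 were the seed maturation and dormancy regulators ABI3 (1586 bp), ABI4 (541 bp) and DOG1 (914 bp), the 12S globulin gene CRU3 (1168 bp) and the 4 albumin genes of the SESA cluster, of which SESA2 (735 bp) and SESA3 (768 bp) were covered whole. CRA1, another 12S globulin gene, carried both marks, with 1234 bp under H3K27me1 and 1910 bp under H3K27me3 of 2099 bp (chr5:17756336-17758245), and SESA5 had all 830 bp under both. H3K27me1 alone lay on AGL15, an embryo MADS-box gene (1530 bp), OLEO1, an oil body protein gene (747 bp), and LEC2, an embryo identity gene (319 bp). By the narrow lists 3 of the 18 were H3K27me1-only, 3 H3K27me3-only (CRA1, CRU3 and SESA2) and 2 carried both.

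Among 14 imprinted genes, whose parental copies differ in expression in the endosperm, 4 were H3K27me1-only, 2 H3K27me3-only and 2 carried both. FWA had 3327 of 4105 bp under H3K27me1 (chr4:13038307-13041686), MYB3R2 1943 bp, FIS2, a PRC2 subunit of the endosperm, 1130 bp and SUVH8 889 bp. PHE1, a MADS-box gene expressed from the paternal copy, had 471 of 1080 bp under H3K27me3 and no H3K27me1, beside 942 bp under H3K4me3 and 776 bp under H3K27ac. SUVH7 had 765 bp under H3K27me3. YUC10, an auxin synthesis gene, and VIM5 carried both marks. By the narrow lists 10 of the 14 were H3K27me1-only and none carried H3K27me3, beside 26.5% and 1.48% of all genes.

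Genes that write, read or erase H3K27 methylation were near all genes in both marks, as 85% of them and 87.6% of all genes carried neither by the broad lists. Of 20, FIS2 was H3K27me1-only, and the demethylase genes JMJ13 and JMJ32 (292 bp) were H3K27me3-only. ATXR5, ATXR6, CLF, SWN, MEA, REF6 and ELF6 carried neither. By the narrow lists FIS2, EMF1, VRN5 and JMJ30 were H3K27me1-only (20%, beside 26.5% of all genes) and JMJ13 was H3K27me3-only. Of the 12 male germline genes none carried H3K27me1 by either list, and DMP9, a gamete fusion gene, and TET12, a tetraspanin gene of sperm, were H3K27me3-only with 600 of 992 bp and 918 of 1668 bp covered. TET12 was also under a narrow H3K27me3 peak (610 bp), and both genes carried H3K4me3 and H3K27ac. Of 11 vegetative cell genes, ANX2, a pollen tube receptor kinase gene, was H3K27me3-only and VGD1, a pollen pectin methylesterase gene, carried both by the broad lists. The narrow lists put 5 of the 11 in the H3K27me1-only set, PRK2, STP11, MYB97, MYB101 and MYB120 (45.5%, beside 26.5% of all genes). They gave both marks to VGD1 and to ANX2, which had 2674 bp under narrow H3K27me1 and 937 bp under narrow H3K27me3. EC1.4, an egg cell gene, had 305 of 384 bp under H3K27me1, and RBCS1A, LHCB2.2 and PSBO1 of the leaf list were H3K27me1-only with 817, 1153 and 1343 bp.

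In the 125 genes with both marks the peaks mostly lay on each other. In 114 of them (91.2%) some bases were under both marks at once, with a median of 506 bp over the set. In 58 the shorter stretch lay wholly within the longer. H3K27me1 covered a median of 58.5% and H3K27me3 39.5% of the span of these genes, so some overlap is likely from cover alone. Overlap beyond that was not tested. The genes from EDA2 to FRO4 below are those with most shared bases. EDA2, named for its role in embryo sac development, had 2381 bp under H3K27me1 and 2207 bp under H3K27me3, of which all 2207 bp were shared (chr2:7857191-7859397 for H3K27me3). CHX9, a cation exchanger gene, shared 1960 bp, IDD5, a zinc finger regulator of starch metabolism, 1819 bp, WRKY48 1579 bp and PLT1 1533 bp. AT1G31310, AT1G68810 and FRO4, a metal reductase gene, shared 1356, 1350 and 1276 bp. In 11 genes the marks were on different parts of the gene, PLT2 and YUC10 among them. The narrow lists gave 110 genes with both, of which 28 were also in the broad set, and some bases were shared in 88 of them.

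The sets also differed in active marks, which the definition of the sets did not use. H3K4me3 lay on 65.7% of H3K27me1-only genes (63.7 to 67.7), 79.2% of H3K27me3-only genes (76.5 to 81.7) and 70.4% of genes with both (61.6 to 78.2), beside 75.2% of all genes. H3K27ac lay on 43.3% (41.3 to 45.4), 58.2% (55.0 to 61.3) and 48.0% (39.0 to 57.1), beside 55.9% of all genes. Neither mark was on 30.7% of H3K27me1-only genes, 17.8% of H3K27me3-only genes and 22.4% of genes with both, beside 22.4% of all genes. By the broad lists H3K27me1-only genes were thus below all genes in both active marks, and H3K27me3-only genes were above them in H3K4me3 with an H3K27ac interval that held the share of all genes.

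This difference was present on the chromosome arms and with the narrow lists. On the arms H3K4me3 lay on 67.5% of H3K27me1-only and 80.5% of H3K27me3-only genes, beside 76.9% of all arm genes. Sets from the narrow lists had shares of 61.3% (60.2 to 62.5) and 86.1% (81.6 to 89.8). Where a gene had H3K4me3, the median fold of its narrow peak was 3.17 in H3K27me1-only genes (quartiles 2.45 to 4.14), 4.07 in H3K27me3-only genes (2.86 to 5.45) and 3.42 in genes with both, beside 4.08 in all genes. H3K27me3-only genes that also had narrow H3K27me1 are taken out when the longer list of each mark is used, and H3K4me3 then lay on 61.5% of H3K27me1-only, 86.4% of H3K27me3-only and 61.5% of genes with both. H3K27ac then lay on 39.9% of H3K27me1-only genes (38.7 to 41.0), 62.5% of H3K27me3-only genes (58.9 to 66.0) and 45.9% of genes with both (40.7 to 51.2). The H3K27me3-only share was above the 55.9% of all genes. Its interval held the 61.7% (61.0 to 62.4) of genes with neither H3K27me1 nor H3K27me3 by these lists. With the narrow list for both marks H3K27ac lay on 40.1% of H3K27me1-only and 55.6% of H3K27me3-only genes (49.7 to 61.4). H3K27ac had only 153 genes (0.557%) by its broad list, so the narrow lists were used for active marks.

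**Figure D5:**
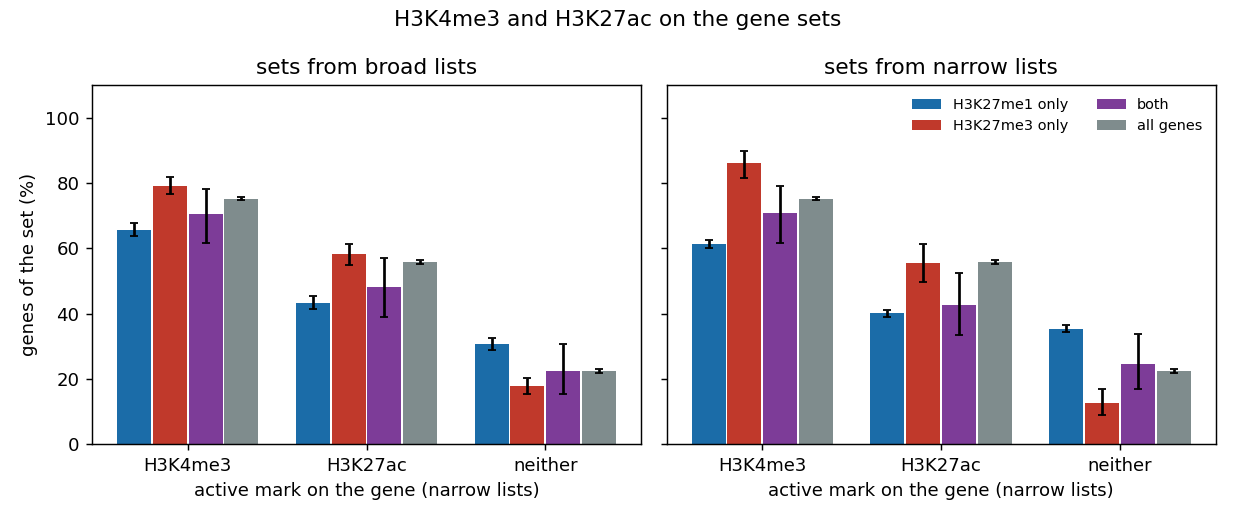
Percent of the genes of a set (y axis, bars with 95% exact binomial intervals) that carry H3K4me3, H3K27ac or neither of them by the narrow lists, for H3K27me1 only, H3K27me3 only, both and all protein-coding genes; sets from broad lists on the left and from narrow lists on the right. In both panels the H3K27me3-only bar of H3K4me3 is the tallest of its group, at 79.2% and 86.1%, and the H3K27me1-only bar is the lowest, at 65.7% and 61.3%.

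Pseudogenes and transposon genes stood above protein-coding genes in H3K27me1 by the narrow lists. Among genes of 150 bp or more, 8.38% of protein-coding genes were H3K27me1-only and 3.59% H3K27me3-only by the broad lists, and 26.6% and 1.08% by the narrow lists. Of 4816 pseudogenes and transposon genes, 59.7% of them pericentromeric, 447 (9.28%) were H3K27me1-only, 75 (1.56%) H3K27me3-only and 14 carried both by the broad lists. In the narrow lists 3643 (75.6%) were H3K27me1-only, 5 were H3K27me3-only and 12 carried both. On the arms alone, the narrow lists gave 59.2% of 1941 such genes H3K27me1-only and 0.258% H3K27me3-only. Of 3480 long noncoding RNA genes, 176 (5.06%) were H3K27me1-only and 55 (1.58%) H3K27me3-only by the broad lists, against 544 (15.6%) and 9 (0.259%) by the narrow lists. All these shares were below those of protein-coding genes. In pericentromeres alone the narrow H3K27me1-only order was reversed. There it was 64.4% of 233 long noncoding RNA genes, beside 55.7% of 1050 protein-coding genes.

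Few genes lay near the limit of 150 bp. Just inside it for H3K27me1 were PAF2 and AT1G63330 with 155 bp and AT2G04515 with 158 bp, and just outside were AT1G48912 and OXS3 with 147 bp and AT4G12334 with 146 bp. For H3K27me3, PPa6 with 151 bp, DVL21 with 152 bp and NG1 with 156 bp were inside, and AT1G21928 and ATJ1 with 145 bp and LCR67 with 144 bp were outside.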

How the data were processed

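The deposited values were 8 peak lists made by the authors, broad and narrow, covering H3K27me1, H3K27me3, H3K27ac and H3K4me3, in TAIR10 coordinates. MACS2 2.1.0 and Bowtie2 2.1.0 are named in the submitters' processing notes, as are Picard, Trim Galore 0.4.1, deepTools 2.5.0.1, bedtools and SAMtools 1.3, with no settings. In the deposited lists each peak has a fold (ratio of IP to control) and a significance as −log10 of the q value from the authors' peak caller. Replicates are pooled in each list and no depth is given.

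Peak starts were shifted to count from 1. Gene spans, names and neighbours came from a RefSeq gene table of TAIR10.1, which has no strand, so gene coordinates are not printed. The best offset of H3K4me3 summits to gene ends was 0 bp on all 5 chromosomes. Peaks of a list were merged and the bases of each gene under them counted. Pericentromeres were the longest run of 500 kb windows per chromosome with a low density of protein-coding genes, 4 Mb on each chromosome except 2.5 Mb on chromosome 4. Counts, shares with exact binomial intervals, and medians are given, with no test. The counting was tested on simulated data, with 0 of 1500 genes set wrongly.

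The gene sets, gene lists and 30 families were chosen with earlier results of these data known, and family name patterns were trimmed of false matches after the gene table was seen. Genes named are list members with either mark, the 8 genes per set with most bases under peaks, up to 4 family members per set, and the 3 genes on each side of the limit per mark; members of runs, the genes with both marks in families and listed genes with neither mark were named after their values were seen. Promoter motifs were not analysed here, as no sequence was used. Alternatives were the narrow lists, 500 bp, 50% of the span and −log10 q of at least 5. The tools were pandas 2.3.3, scipy 1.17.1, numpy 2.4.6 and matplotlib 3.10.9 under Python 3.11.15.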

Additional observations from a re-analysis of the deposited data

How the results depend on the processing

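The number of H3K27me1-only genes was 2287 by the broad lists, 7260 by the narrow lists, 7006 with narrow H3K27me1 and broad H3K27me3, 1464 where 50% of the span had to be covered and 537 with broad peaks kept from a −log10 q of 5 upward. H3K27me3-only genes numbered 980, against 295 by the narrow lists, 354 at 50% of the span, 61 at −log10 q from 5 upward and 260 with broad H3K27me3 peaks of q up to 0.05, a limit chosen after seeing the data. Genes with both numbered 125, against 364 with narrow H3K27me1 and broad H3K27me3, 31 at 50% of the span, 3 at −log10 q from 5 upward and 37 at q up to 0.05. The pericentromeric share of H3K27me1-only genes (4.37%) was 8.06% by the narrow lists, 8.14% with narrow H3K27me1 and broad H3K27me3, 5.60% at 50% of the span and 3.35% at −log10 q from 5 upward. That of H3K27me3-only genes (3.88%) was 2.37% by the narrow lists, 2.29% with narrow H3K27me1 and broad H3K27me3, 0% at −log10 q from 5 upward and 1.54% at q up to 0.05. The median span of H3K27me1-only genes (2006 bp) was 2117 bp at 500 bp under peaks and 1748.5 bp at 50% of the span, and that of H3K27me3-only genes (1937.5 bp) was 1830 bp by the narrow lists and 1391 bp at 50% of the span. The cause of these differences was not tested, apart from the settings that by construction remove peaks or genes, and the settings on q rest on broad-list values whose link to their peak is unsure. No paired analysis was possible because each list pools its IPs, and for the same reason no IP could be left out. The depth is unknown, so a gene without a peak is not shown to lack the mark.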
